A study of Mus musculus with 2 samples.

Results

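A set of 9 genes that mark the naive, quiescent state of T cells were followed in CD4+ T cells after 48 h of culture in Th17-polarising conditions. They are the transcription factor and chromatin genes Foxp1, Foxo1, Klf2, Tcf7, Lef1, Bach2 and Satb1 and the homing receptor genes S1pr1 and Ccr7. The set was named by symbol, and its rows were found through their Entrez identifiers. All 9 were present among the 13056 Entrez-annotated rows of a table of 24440 features. The T cells came from wild-type C57BL/6 mice of 6 to 8 weeks. One culture held wild-type antigen presenting cells (WT APCs), the other held APCs transgenic for OX40L (OX40L-TG APCs), the ligand of the costimulatory receptor OX40. Per the labels' protocols, 5000000 cultured cells were taken for RNA. The transgene's promoter, the type of APC, the cytokines added and the number of mice are not given in the sources used here.

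Naive T cells circulate between blood and lymphoid organs and stay small and non-dividing. FOXO1 holds this state by driving the genes of KLF2, CCR7 and the IL-7 receptor, and KLF2 in turn drives S1pr1, whose product lets the cells leave lymphoid tissue. TCF1 (encoded by Tcf7) and LEF1 are paralogous HMG-box factors that keep early T cell programmes open, BACH2 represses effector genes, SATB1 organises chromatin loops, and FOXP1 enforces quiescence. T cell activation normally lowers many of these genes.

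The libraries parted the 9 genes. Foxp1, Klf2 and S1pr1 stood at about 2-fold or more lower levels in the OX40L-TG-APC library, Foxo1, Bach2 and Tcf7 were lower by less, Satb1 was close to level, and Ccr7 and Lef1 were higher. With 1 library per condition the differences have no replicate check, and no test between conditions was possible. Levels are FPKM, fragment numbers normalised to transcript length and sequencing depth, so they can be set side by side between genes. Change is the log2 ratio of OX40L-TG-APC to WT-APC values after 1 FPKM was added to each, a scale on which ratios of low genes come out too small, and a gene was called at 2-fold on this scale. By that rule 2 of the 9 genes were lower, Foxp1 and S1pr1, and none was higher. The number lower was 3, with Klf2, when no pseudocount was used or the libraries were rescaled, and 0 with a pseudocount of 5 FPKM (Foxp1 -0.94, S1pr1 -0.96). Among the 10645 genes that reached 1 FPKM in a library, 1.32% were called lower and 2.26% higher. The median change of the 9 genes was -0.33, and that of all genes was 0.11. Of the 9 genes 7 stood under that all-gene median, and Ccr7 and Lef1 stood above it. The 9 genes were chosen with earlier results of these data known, so this contrast is a description only.

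**Figure D1:**
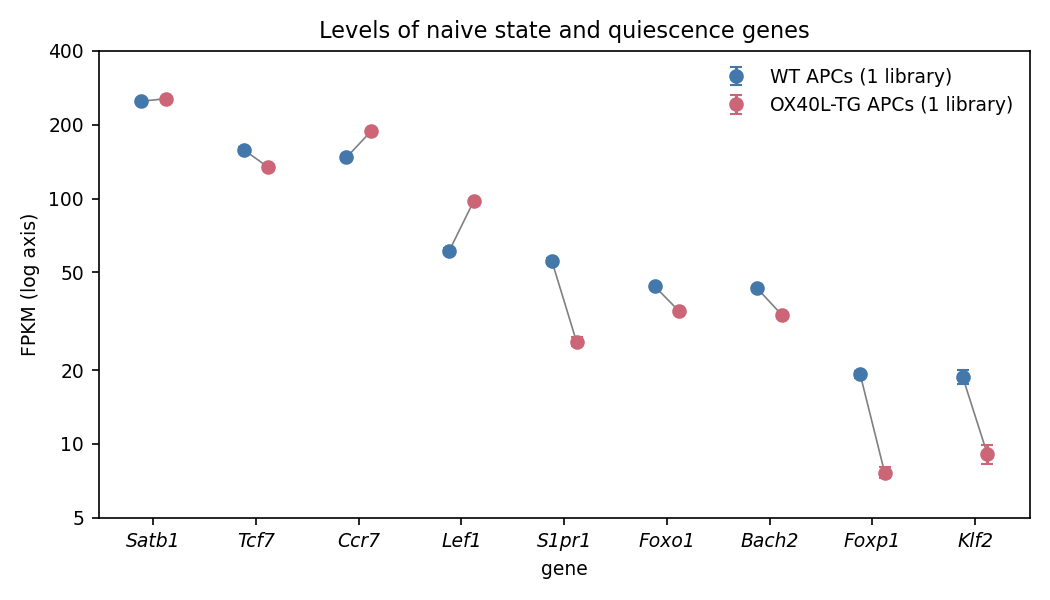
FPKM (log axis) of the 9 genes with WT APCs (blue) and OX40L-TG APCs (red), 1 library each, ordered by WT-APC level. Bars are 95% exact Poisson intervals for counting error only. Foxp1 (19.3 to 7.63 FPKM), Klf2 (18.7 to 9.07 FPKM) and S1pr1 (55.6 to 26.1 FPKM) are the lines that slope down most, and that of Lef1 (61.1 to 97.8 FPKM) slopes up.

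The plot of levels shows that the genes differed widely among themselves. In the WT-APC library they ran from 249 FPKM for Satb1 down to 18.7 FPKM for Klf2, a 13.3-fold span. In the OX40L-TG-APC library the span was 33.4-fold, from 255 FPKM for Satb1 to 7.63 FPKM for Foxp1. With WT APCs the order was Satb1, Tcf7, Ccr7, Lef1, S1pr1, Foxo1, Bach2, Foxp1 and Klf2. With OX40L-TG APCs Ccr7 stood above Tcf7, S1pr1 stood behind Foxo1 and Bach2, and Foxp1 came last. The counting intervals of Foxo1 and Bach2 overlapped in both libraries, and those of Foxp1 and Klf2 overlapped with WT APCs. The other neighbours were apart by counting error, while their spread between cultures is not known.

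The promoters of Klf2 and Foxp1, the members with a promoter entry that were lowest against WT APCs, and of the paralogues Lef1 and Tcf7, which went opposite ways, are shown first. RefSeq promoters of build GRCm38.p6, spanning 250 bases before to 50 after a gene's start, were found for 7 of the 9 genes. Where a gene has several starts, the one nearest to the 5′ end of the authors' locus was taken. For Foxp1 that start lies 95988 bases inside the authors' locus. Klf2 (chr8:72318812-72319111, plus strand) and Foxp1 (chr6:99520944-99521243, minus strand) were lower with OX40L-TG APCs. Lef1 (chr3:131110047-131110346, plus strand) was higher, and its paralogue Tcf7 (chr11:52282546-52282845, minus strand) was slightly lower. Capitals mark matches on either strand to CACCC, the core that KLF proteins bind, to TGTTTAC, a forkhead motif, to CTTTGA, a TCF and LEF core, or to TGAGTCA, a motif of AP-1 and BACH proteins.
Klf2: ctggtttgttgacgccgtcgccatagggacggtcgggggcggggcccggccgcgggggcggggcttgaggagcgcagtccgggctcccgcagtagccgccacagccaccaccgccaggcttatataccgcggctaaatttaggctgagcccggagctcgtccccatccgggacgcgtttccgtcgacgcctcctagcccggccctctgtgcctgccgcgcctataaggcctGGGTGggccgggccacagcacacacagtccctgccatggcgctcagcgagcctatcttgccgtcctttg
Foxp1: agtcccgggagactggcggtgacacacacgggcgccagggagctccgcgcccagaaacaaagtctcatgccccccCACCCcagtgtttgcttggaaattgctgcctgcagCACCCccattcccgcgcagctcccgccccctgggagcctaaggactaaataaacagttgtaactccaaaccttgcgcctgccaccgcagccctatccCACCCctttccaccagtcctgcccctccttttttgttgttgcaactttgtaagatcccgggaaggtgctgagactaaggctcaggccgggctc
Lef1: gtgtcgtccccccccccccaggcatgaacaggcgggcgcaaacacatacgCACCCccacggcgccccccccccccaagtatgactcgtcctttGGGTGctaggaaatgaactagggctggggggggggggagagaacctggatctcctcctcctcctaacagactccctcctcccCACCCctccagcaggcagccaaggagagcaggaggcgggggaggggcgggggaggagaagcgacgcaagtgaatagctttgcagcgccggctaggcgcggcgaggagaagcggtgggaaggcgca
Tcf7: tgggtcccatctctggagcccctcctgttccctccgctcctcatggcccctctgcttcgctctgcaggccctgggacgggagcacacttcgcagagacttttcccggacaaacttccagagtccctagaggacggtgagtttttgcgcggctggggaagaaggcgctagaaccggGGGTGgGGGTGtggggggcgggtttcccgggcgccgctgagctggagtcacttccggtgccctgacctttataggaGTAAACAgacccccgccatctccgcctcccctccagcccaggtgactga

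The Klf2 window held 1 CACCC match, at -19 from the start site. Foxp1 and Lef1 held 3 each and Tcf7 held 2. Thus the core stood in the promoters of genes that were lower and of the gene that was higher. Over the 7 promoters, 5 held CACCC, against 57.5% of all 32851 RefSeq promoters. The forkhead letters were found once, in Tcf7 at 2 bases after the start (1 of 7 promoters, against 3.65% of all). CTTTGA was found once, in Bach2 (1 of 7, against 16.0%), and TGAGTCA in none of the 7 (against 5.20%). No match overlapped another motif. A match says only that these letters are present.

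Foxo1 (Entrez 56458, chromosome 3, 52268337 to 52354141, the authors' locus over exons and introns) encodes the forkhead factor at the head of the naive programme. Its level was 43.9 FPKM with WT APCs and 34.7 FPKM with OX40L-TG APCs, a ratio of 0.790. The 95% exact Clopper-Pearson interval of that ratio, here and below from estimated fragments and for counting error only, was 0.767 to 0.814. Foxo1 was thus slightly lower, and 728 of the 10645 genes had a lower change.

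The genes of FOXO1 control and of the FOXO family mostly differed little. FOXO proteins leave the nucleus when AKT or SGK1 phosphorylates them, downstream of PI3K. Of 15 genes of this list, which includes the paralogues Foxo3 and Foxo4, 1 was called lower, 1 was called higher, and the list median was 0.03. Akt1 stood at 82.7 and 87.0 FPKM, WT APCs first here and below. Pik3cd, which encodes the leukocyte PI3K catalytic subunit, stood at 89.2 and 109 FPKM. Inpp5d, which encodes the opposing phosphatase SHIP1, stood at 50.1 and 49.4 FPKM. The lower gene was Sgk1, a kinase gene also known for stabilising the Th17 state in mice, at 22.3 and 6.66 FPKM, a ratio of 0.298 (0.268 to 0.331). The authors' deposited table listed it at a log2 ratio of -1.71 and a p-value of 0.00025. Like that table's other p-values, this one compares the same 2 libraries and does not measure the spread between cultures. The higher gene was Foxo3, a paralogue of Foxo1, at 8.78 and 18.7 FPKM (ratio 2.13, 1.93 to 2.34). Its change of 1.01 came to 0.89 with the median ratio of well-expressed genes set to 1, short of 2-fold. The level of Foxo1 was 4.99 times that of Foxo3 with WT APCs and 1.86 times with OX40L-TG APCs. Such a quotient within a library does not depend on how the libraries are scaled.

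Klf2 (Entrez 16598, chromosome 8, 72319062 to 72325530) encodes the Krüppel-like factor that restrains T cell division and sets homing. It stood at 18.7 FPKM with WT APCs and 9.07 FPKM with OX40L-TG APCs. The ratio was 0.485 (0.432 to 0.543), from about 845 and 469 fragments, the fewest behind any of the 9 genes. With the pseudocount of 1 FPKM its change was -0.97, just short of the 2-fold call, and the plain ratio passed it. The authors' deposited table listed it as lower, with a log2 ratio of -1.01 and a p-value of 0.03345. The rest of the KLF family differed in both directions. Of 9 other kept KLF genes none was called lower and Klf6 was called higher, with a list median of 0.29. Klf6, which encodes an activation-induced relative, stood at 19.5 and 44.1 FPKM (ratio 2.26, 2.15 to 2.38), though its change of 1.14 came to 0.96 with equal totals. Klf13 stood at 30.2 FPKM in both libraries and Klf3 was at a change of -0.70. Klf6 and Klf2 were level with WT APCs, at a quotient of 1.04, and the quotient was 4.87 with OX40L-TG APCs.

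S1pr1 (Entrez 13609, chromosome 3, 115710433 to 115715055) encodes the receptor for sphingosine 1-phosphate that draws T cells out of lymphoid organs. Its level was 55.6 FPKM with WT APCs and 26.1 FPKM with OX40L-TG APCs, 2.13-fold lower (2.02 to 2.25). Its change was -1.06, and 118 of the 10645 genes had a lower one. It was listed in the authors' deposited table at a log2 ratio of -1.06 and a p-value of 0.00695. No other row was printed at its locus. The other genes of S1P sensing and egress held none at 2-fold among 8 kept, with a median of 0.07. S1pr4, another S1P receptor gene of T cells, stood at 37.3 and 32.5 FPKM (ratio 0.870, 0.819 to 0.924). S1pr1 was thus the more abundant of the pair with WT APCs and the less abundant with OX40L-TG APCs. Cd69, whose product pulls S1P receptor 1 from the cell surface, stood at 39.1 and 42.6 FPKM. Gnai2, which encodes the G protein subunit that carries signals of S1P and chemokine receptors, stood at 193 and 248 FPKM.

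Ccr7 (Entrez 12775, chromosome 11, 99144199 to 99155077) encodes the chemokine receptor for entry into lymph nodes and for their T cell zones. It stood at 147 FPKM with WT APCs and 188 FPKM with OX40L-TG APCs, a ratio of 1.28 (1.24 to 1.31). Its change of 0.35 stayed above 0 under each scaling tried, at 0.22 with the median ratio set to 1 and 0.17 with equal totals. Among the 10645 genes Ccr7 ranked 2042 from the highest change, while S1pr1 ranked 119 from the lowest. The receptor genes of entry and exit thus stood on opposite sides, with Ccr7 the less extreme. The Ccr7 level was 2.65 times that of S1pr1 with WT APCs and 7.21 times with OX40L-TG APCs.

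Other genes of lymph node entry differed by less than 2-fold. None of 6 kept genes was called, and their median was -0.06. The integrin genes Itgal (43.7 and 42.6 FPKM) and Itgb2 (164 and 155 FPKM) and the chemokine receptor gene Cxcr4 (126 and 136 FPKM) were among them. The chemokine genes Ccl19 and Ccl21a, whose products bind CCR7, were not analysed here.

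The known targets of FOXO1 and KLF2 went both ways. Of 14 kept target genes beside Klf2, S1pr1 and Ccr7, 1 was called lower, 1 was called higher and 12 were neither, with a median of -0.03. The lower one was Bcl2l11, which encodes the death-promoting protein BIM, at 23.9 and 7.05 FPKM (ratio 0.295, 0.269 to 0.324), at a locus printed for another gene too. The higher one was Il7r, the gene of the IL-7 receptor chain, at 13.3 and 47.8 FPKM. Its ratio was 3.59 (3.36 to 3.83), and the authors' deposited table listed it at a log2 ratio of 1.88 and a p-value of 5e-05. Btg1, an antiproliferative gene, stood at 89.1 and 60.1 FPKM, and Cdkn1b, which encodes the cell cycle inhibitor p27, at 53.6 and 55.3 FPKM. Il7r and Klf2, both driven by FOXO1 in naive T cells, thus lay on opposite sides.

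**Figure D2:**
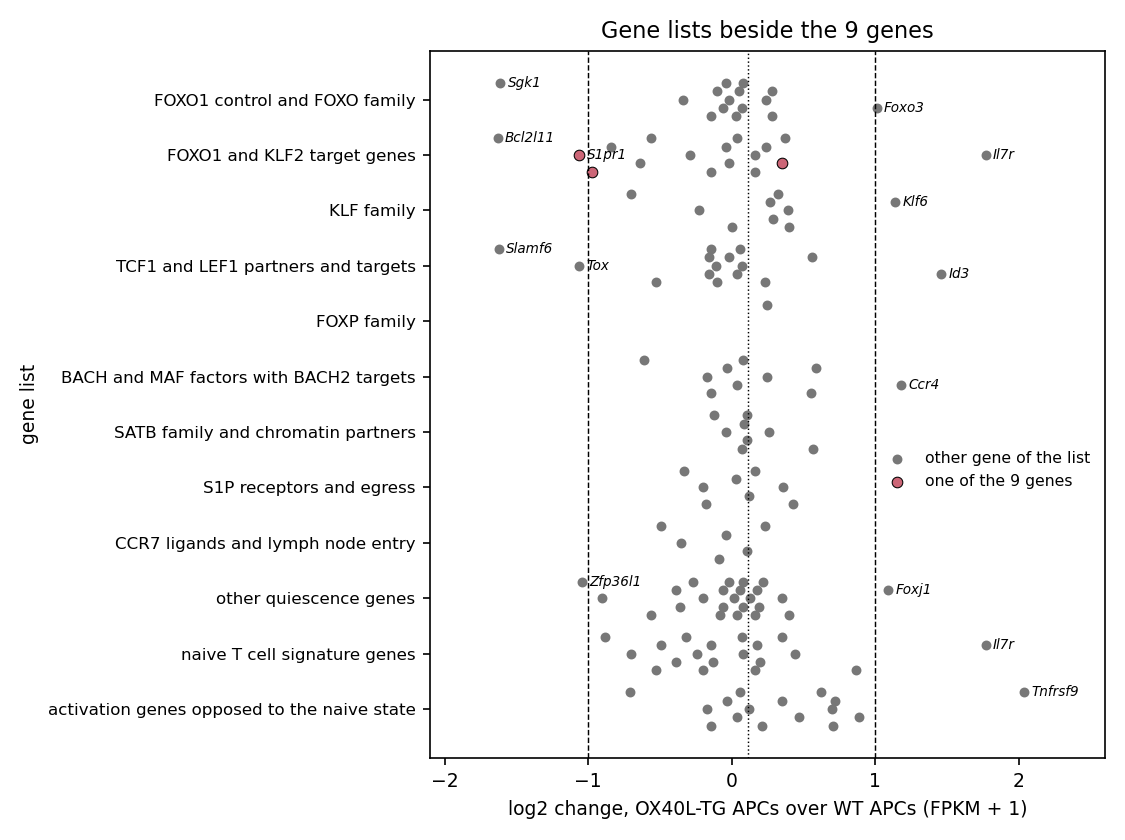
Log2 change (FPKM + 1, OX40L-TG APCs over WT APCs) of each kept gene in 12 lists of genes tied to the 9 genes, shown in red where they belong to a list. Dashed lines mark 2-fold and the dotted line the median of all genes, 0.11; called genes are named, and most genes of each list lie between the dashed lines.

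Foxp1 (Entrez 108655, chromosome 6, 98925342 to 99616981) encodes a forkhead repressor that keeps naive T cells quiescent and, in mice, holds down Il7r. It had the lowest change of the 9 genes. Its level was 19.3 FPKM with WT APCs and 7.63 FPKM with OX40L-TG APCs, 2.53-fold lower (2.38 to 2.69), from about 3311 and 1501 fragments. The change was -1.23, and 71 of the 10645 genes had a lower one. The authors' deposited table listed it at a log2 ratio of -1.31 and a p-value of 0.00425. Its relative Foxp4 stood at 13.1 and 15.7 FPKM (ratio 1.20, 1.11 to 1.30), so that the order of the pair differed between the libraries. Foxp2 and Foxp3 were not analysed here. The Il7r level was 0.691 times that of Foxp1 with WT APCs and 6.27 times with OX40L-TG APCs. This quotient only restates the changes of both genes, and an effect of FOXP1 on Il7r was not tested.

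The Foxp1 locus carried 25 further rows of the table, 23 with identifiers that start with n, which the file does not explain, and 2 with assembly (XLOC) identifiers. Of these, 7 reached 1 FPKM in a library. All 7 were lower with OX40L-TG APCs, and their median ratio was 0.339, near the 0.396 of the gene itself. They were low, at 1.19 to 3.23 FPKM with WT APCs, and 3 were called lower. These were n270818, n286822 and an XLOC row (1.45 and 0.00149 FPKM). Among all n rows with at least 1 FPKM, which do not include XLOC rows, 1.23% were called lower. The Bach2 locus carried 6 such n rows at 3.30 to 16.2 FPKM with WT APCs. All 6 were lower with OX40L-TG APCs, with ratios of 0.489 to 0.711, and none was called. Over all 1709 n rows with at least 1 FPKM, 70.0% were lower, with a median ratio of 0.840. Whether such rows share reads with the gene they lie in was not tested.

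Tcf7 and Lef1 encode TCF1 and LEF1, which bind the same DNA core and can stand in for each other in T cell development. Tcf7 (Entrez 21414, chromosome 11, 52252604 to 52282571) stood at 158 FPKM with WT APCs and 134 FPKM with OX40L-TG APCs, a ratio of 0.848 (0.822 to 0.875). Lef1 (Entrez 16842, chromosome 3, 131110297 to 131224357) had levels of 61.1 and 97.8 FPKM, a ratio of 1.60 (1.55 to 1.66), with a change of 0.67 that was the highest of the 9 genes. Among the 10645 genes Lef1 ranked 585 from the highest change. The paralogues went opposite ways, with Lef1 at 0.386 of the Tcf7 level with WT APCs and at 0.729 with OX40L-TG APCs. Gene-level FPKM do not separate the long and short isoforms of either gene, of which those that lack the beta-catenin binding end act differently.

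Of 15 kept genes among the partners and targets of TCF1 and LEF1, 12 stood under the all-gene median. In this list 2 were called lower, 1 was called higher and 12 were neither, with a median of -0.10 (0.11 over all genes). Ctnnb1, which encodes the coactivator beta-catenin, stood at 148 and 137 FPKM, and Tle5, which encodes a short member of the Groucho family, at 284 and 332 FPKM. Axin2, a feedback target of the Wnt pathway, stood at 5.35 and 4.70 FPKM. The lower genes were Slamf6, a receptor gene of TCF1-positive T cells (28.0 and 8.45 FPKM, ratio 0.302), and Tox, an HMG-box factor gene (6.54 and 2.61 FPKM, ratio 0.400). The authors' deposited table listed Slamf6 as lower and did not list Tox under that symbol. The higher gene was Id3, which encodes an inhibitor of E proteins (17.7 and 50.4 FPKM, ratio 2.84).

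**Figure D3:**
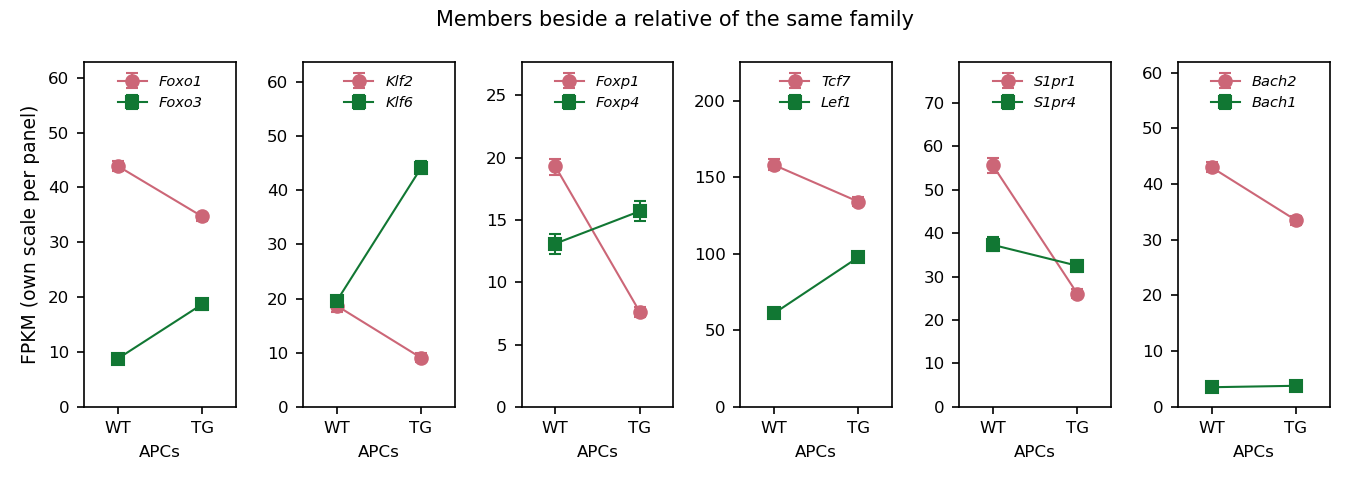
FPKM of 6 members or member pairs beside a relative of the same family, with WT APCs (WT) and OX40L-TG APCs (TG), 1 library each and a scale of its own per panel; bars are 95% exact Poisson intervals for counting error. Foxo3 and Klf6 were chosen because they were called; Foxp1 and Foxp4 cross, as do S1pr1 and S1pr4.

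Bach2 (Entrez 12014, chromosome 4, 32417435 to 32586108) encodes a repressor that shields naive and memory T cells from effector genes by competing with AP-1 factors. It stood at 43.0 FPKM with WT APCs and 33.5 FPKM with OX40L-TG APCs, a ratio of 0.779 (0.756 to 0.803). Foxo1 had nearly the same ratio. Its antisense neighbour Bach2os was at or under 0.0509 FPKM in both libraries. The strand handling is not given, so reads of the pair could not be separated. Of 10 genes in a list of BACH and MAF factors and genes tied to BACH2, 1 was called higher and 0 were called lower, and the list median was 0.06. The higher one was Ccr4, a chemokine receptor gene (9.43 and 22.6 FPKM, ratio 2.40). Prdm1, which encodes the effector factor Blimp-1 and is repressed by BACH2, was low in both libraries (1.18 and 1.14 FPKM). Batf, which encodes an AP-1 partner of Th17 cells, stood at 185 and 165 FPKM, and Bach1 at 3.52 and 3.78 FPKM.

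Satb1 (Entrez 20230, chromosome 17, 51736187 to 51833290) encodes the chromatin organiser of thymocytes and T cells and was the most abundant of the 9 genes in both libraries. Its levels were 249 and 255 FPKM, a ratio of 1.03 (1.01 to 1.04). Its change was 0.04 as reported, -0.09 when the median ratio was set to 1 and -0.14 under equal totals, so its direction depended on the scaling. The 8 kept genes of its partners held none at 2-fold, with a median of 0.10. Among them Ets1 (413 and 402 FPKM) and Bcl11b (27.9 and 29.4 FPKM), factor genes of T cell identity, and Chd4 (150 and 160 FPKM), which encodes a remodelling ATPase, were close to level.

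**Figure D4:**
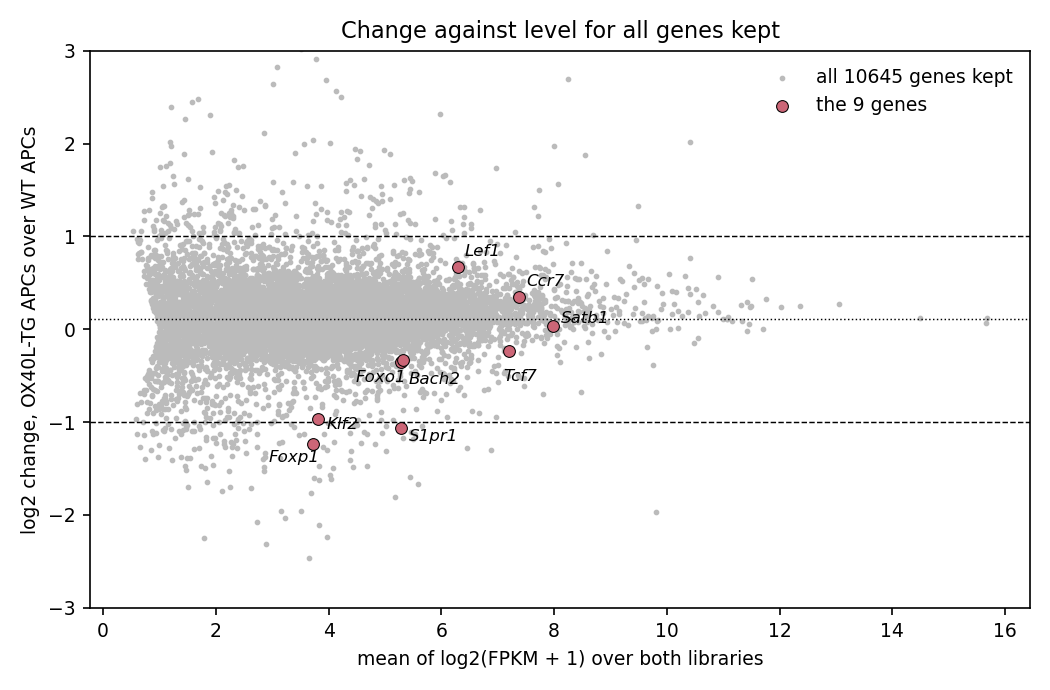
Log2 change (OX40L-TG APCs over WT APCs) against mean log2(FPKM + 1) for the 10645 genes kept (grey), with the 9 genes in red; 15 genes beyond 3 on the change axis are not drawn. Dashed lines mark 2-fold and the dotted line the median of all genes; Foxp1 and S1pr1 lie below the lower dashed line, Klf2 just above it, and Lef1 and Ccr7 above the median.

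Other quiescence genes were mostly level. Of 24 kept genes, 1 was called lower, 1 was called higher and 22 were neither, with a median of 0.03. The lower one was Zfp36l1, which encodes an RNA-binding protein that destabilises mRNA (55.3 and 26.3 FPKM, ratio 0.476), while its relative Zfp36l2 had a change of -0.06. The higher one was Foxj1, a forkhead gene (0.585 and 2.38 FPKM, ratio 4.06, 2.84 to 5.95), at low levels in both libraries. Its change of 1.09 came to 0.97 with equal totals and to 0.40 with a pseudocount of 5 FPKM. Slfn2, which encodes a Schlafen protein needed for T cell quiescence in mice, stood at 138 and 73.6 FPKM (ratio 0.531, 0.509 to 0.554). Btg2, a relative of Btg1, stood at 38.6 and 36.9 FPKM.

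Among 19 signature genes of naive T cells, Il7r was called higher, none was called lower and 18 were neither, with a median of -0.13. Igfbp4, abundant in naive CD4+ T cells, stood at 283 and 174 FPKM, and Evl, which encodes an actin regulator, at 125 and 67.5 FPKM. On the other side Treml2, a receptor gene, had a ratio of 1.87 and Atp1b1, which encodes a sodium pump subunit, a ratio of 1.51. Of 16 activation genes, Tnfrsf9, which encodes 4-1BB, was called higher (5.49 and 25.7 FPKM, at a locus shared with 5 other rows) and none was called lower, with a median of 0.28. Tnfrsf9 was not listed in the authors' deposited table under that symbol. In all, the 12 lists held 137 kept genes beside the 9, of which 5 (3.65%) were called lower and 7 (5.11%) higher. Over all 10645 genes the shares were 1.32% and 2.26%. The median of the 137 genes was 0.06. With a pseudocount of 5 FPKM, 3 genes of the lists were called lower and 4 higher. With the median ratio set to 1 these were 7 and 6, and with equal totals 7 and 4. One naive signature gene was among the lower ones with the median ratio set to 1. The lists were chosen with earlier results of these data known.

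With OX40L-TG APCs the B cell marker levels were lower, while markers of other cells went both ways. B cells also express Foxp1, Foxo1, Klf2, Bach2, S1pr1 and Ccr7. The 14 B cell markers summed to 66.5 FPKM with WT APCs and 30.1 FPKM with OX40L-TG APCs, with none at 0. Of 12 kept ones all stood under the all-gene median, and 5 were called lower. Cd79a, which encodes a chain of the B cell receptor complex, stood at 6.52 and 2.20 FPKM. The part of B cell RNA in the lower levels was not tested, and in RNA of a whole culture fewer cells of a type and less RNA per cell cannot be told apart. The 10 monocyte and macrophage markers summed to 18.4 and 17.7 FPKM, of which Cebpb alone gave 5.58 and 11.6 FPKM. Cebpb was listed as higher in the authors' deposited table. Of 5 kept markers 4 stood under the all-gene median, and 2 were called lower (Lyz2 and Tyrobp). The other kept ones were Fcer1g (1.51 and 1.08 FPKM) and Cd68 (2.25 and 2.44 FPKM). Itgam, Csf1r, Cd14, Adgre1 and Fcgr1, under 1 FPKM in both libraries, each had a lower value with OX40L-TG APCs. For Cd14 (0.260 to 1.24) and Fcgr1 (0.0108 to 70.3) the interval of the ratio included 1, so no direction can be read. The 8 dendritic cell markers summed to 8.40 and 5.66 FPKM, with 1 of 2 kept called lower (Flt3) and 3 genes listed at 0 in a library. CD8 T and natural killer cell markers summed to 18.2 and 18.0 FPKM. Of 2 endothelial markers analysed, Pecam1, which leukocytes share, stood at 22.7 and 7.55 FPKM, and Cdh5 was at or near 0. The 15 T cell markers were high in both libraries, at 2780 and 3080 FPKM in sum with none called, among them Cd3e (98.0 and 86.5 FPKM) and Cd4 (201 and 246 FPKM), as the CD4+ T cell label says.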

How the data were processed

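RNA-seq libraries of 2 cultures, 1 per APC genotype, were described. The authors deposited FPKM values per feature, made with TopHat2 and Cuffdiff on mm9 per the submitters' processing notes. Tool versions, filters, strand settings and gene models are not given in the sources used here. The authors' deposited table of their comparison holds the log2 FPKM ratio and an unadjusted p-value for 398 genes, per the file headers. It lists no gene under 2-fold and no p-value above 0.0498, so that table holds 3 of the 9 members (Foxp1, Klf2 and S1pr1) and not the other 6. For these 3 its WT-APC FPKM are slightly lower than those of the full table (54.2 against 55.6 for S1pr1). The p-values of that table rest on 1 library per group and do not measure the spread between cultures. Printed loci of the members lie at their GRCm38 gene positions, and starts are given 1-based. Both ends equal those of RefSeq for Lef1, Satb1, S1pr1 and Ccr7. The loci of Foxp1, Foxo1, Klf2, Tcf7 and Bach2 differ from RefSeq at an end or both (Klf2 ends at 72325530, against 72321654). Symbols came from the RefSeq table of GRCm38.p6 by Entrez identifier (13030 of 13056 matched).

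Depth was estimated from the 1-fragment steps of 416 single-transcript genes under 0.3 FPKM with at least 1500 bases. At a step ratio of 1.15, 52.2% of them gave whole-number ratios within 0.2%, against a median of 1.20% over all ratios tried, and the libraries came to about 24400000 (WT APCs) and 28000000 (OX40L-TG APCs) fragments. Fragments per gene used the median length of GENCODE M21 transcripts. Intervals are 95% exact Clopper-Pearson (ratios) or Poisson (levels) and cover counting error only. The ratio intervals were run on simulated data with the true fragment numbers and depth ratio, which an exact interval covers by design. The error of estimating fragments from FPKM was thus not tested, nor were the level intervals. Genes under 1 FPKM in both libraries were left out, and a pseudocount of 1 FPKM was used.

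The members, the 12 gene lists and the 6 marker lists were chosen with earlier results of these data known. Some listed genes are not reported here and were left out of the lists. Named genes were the 9 members, each list's called genes and up to 3 abundant genes that act with a member. A few further genes (Klf3, Klf13, Foxp4, Bach1, Slfn2, Igfbp4, Evl, Treml2, Atp1b1, Cebpb, Cd68 and other single examples) were chosen after their values were seen. Other pseudocounts, filters and scalings were tried. The work used Python 3.11.15, pandas 2.3.3, numpy 2.4.6, scipy 1.17.1 and matplotlib 3.10.9.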

Additional observations from a re-analysis of the deposited data

How the results depend on the processing

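The settings tried were pseudocounts of 0.1, 5 and 0 FPKM, the median ratio of genes with at least 10 FPKM set to 1, equal total FPKM, no filter on low values, and a filter at 5 FPKM. Of the 9 genes 2 were at least 2-fold lower as reported, and 3 were (Klf2 as well) with a pseudocount of 0.1, with none, and under both scalings. With a pseudocount of 5 FPKM the number was 0, since Foxp1 came to -0.94, S1pr1 to -0.96 and Klf2 to -0.75, since a larger constant draws every change toward 0. None of the 9 genes was called higher under any of these settings. The median change of the 9 genes was -0.46 with the median ratio set to 1 and -0.51 with equal totals, since both scalings lower every OX40L-TG-APC value; the other settings gave -0.30 to -0.34. Among the 9 genes Satb1 alone turned sign, under the 2 scalings. For the genes of the 12 lists, 4 instead of 7 were called higher with a pseudocount of 5 FPKM and also with equal totals. With that pseudocount Ccr4 (0.94), Foxj1 (0.40) and Foxo3 (0.78) fell short; with equal totals Foxj1 (0.97), Foxo3 (0.84) and Klf6 (0.96) did. On the lower side 3 instead of 5 were called with a pseudocount of 5 FPKM, without Tox (-0.60) and Zfp36l1 (-0.95). Under both scalings the number called lower was 7. With the median ratio set to 1, the other quiescence genes held 2 lower genes instead of 1. The naive T cell signature genes then held 1 lower gene instead of 0. Over all genes, 63.1% of the calls were higher as reported, 51.8% with the median ratio set to 1 and 47.3% with equal totals. With a pseudocount of 5 FPKM 39 genes were called lower and 101 higher over all genes, against 141 and 241 as reported. With 0.1 FPKM these were 251 and 405, and with none 269 and 425.

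No paired analysis was possible because each group had 1 library. The fewest fragments behind a value of the 9 genes were about 469. The spread between cultures is unknown, so counting error could not be set against it.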
